A study of Mus musculus with 12 samples.

Results

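The response of wild-type bone marrow-derived macrophages to 4 hours of lipopolysaccharide (LPS) is described here as messenger RNA levels, comparing 3 libraries of LPS-treated cells with 3 libraries of PBS control cells. These 6 libraries were taken by their genotype and treatment labels from 12 in all, and 15801 of the 55487 genes in the count table had enough counts to be tested. The LPS group is Fes+/+ macrophages given 1 µg/mL LPS, and the PBS group is Fes+/+ macrophages labelled PBS, which the treatment text calls untreated. All cells were kept in medium with 20 ng/mL macrophage colony-stimulating factor (M-CSF) and plated at 2500000 cells per well. The other 6 libraries are Fes-/- macrophages under the same treatments, and the study set up the series to compare the genotypes of Fes, a cytoplasmic tyrosine kinase. Mouse strain, age and sex are not given in the labels, and all 12 libraries carry 1 batch date. The design text gives 3 mice per genotype; no label ties a PBS library and an LPS library to 1 mouse.

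LPS is a glycolipid of the outer membrane of Gram-negative bacteria. Macrophages bind it through CD14 and the TLR4-MD-2 receptor complex, which signals through the adaptor MyD88 to NF-kB and MAP kinases and, after uptake, through TRIF to IRF3 and interferon-beta. Interferon-beta then acts back on the same cells through its receptor and JAK-STAT signalling, so that inflammatory genes and interferon-stimulated genes rise in the same culture within hours.

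The wild-type libraries held 61016254 to 76617456 counts. Between libraries of 1 treatment the correlation of log2 levels was 0.989 to 0.993, and between treatments it was 0.850 to 0.864. Macrophage markers were abundant in every library: the 16 markers summed to 46898 to 54206 transcripts per 1000000 (TPM) in PBS and 27477 to 32046 TPM in LPS, with Lyz2, lysozyme M, at 26104 and 12337 TPM. The direction depended on scaling, as described below. Under TMM, the main scaling, 9 of the 16 were higher, 3 lower and 4 not called (median log2 change 0.3). Under library totals 3 were higher and 13 lower. Lyz2 was called lower under library totals (-1.05) but was not called under TMM. The T cell genes Cd3d, Cd3e and Cd3g, the NK cell genes Ncr1, Gzma and Prf1 and the neutrophil gene Ly6g had no count in any of the 6 libraries. Other markers of these and other lineages were present, and some moved with treatment. The T cell list summed to 63.6 to 114 TPM in PBS and 17.4 to 22.9 TPM in LPS, mostly Cd28 in PBS and Lck in LPS. The B cell list summed to 49.4 to 121 and 9.93 to 19.3 TPM, mostly Ighm and Cd79b, and the neutrophil list to 97.4 to 135 and 132 to 186 TPM, mostly Csf3r. The NK cell list summed to 0.149 to 0.354 and 7.5 to 8.72 TPM, mostly Klrk1. The dendritic cell list summed to 491 to 825 and 1023 to 1127 TPM, mostly Bst2, with 5 of 8 tested genes higher (3 under library totals), and the erythroid and megakaryocyte list to 849 to 872 and 691 to 780 TPM, mostly Pf4. Their part in the results was not tested. Mitochondrially encoded genes took 1.83 to 2.35% of counts in PBS and 1.27 to 1.43% in LPS, and 12979 to 13146 genes reached 1 TPM in PBS against 11497 to 11581 in LPS.

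LPS changed most of the measured transcriptome. edgeR's quasi-likelihood test called 11601 of 15801 genes at a Benjamini-Hochberg adjusted p under 0.05, which is 73.4% of those tested; 5464 genes (34.6%) were higher in LPS and 6137 (38.8%) were lower. Because so many genes passed, a stricter test against a 2-fold change was also applied, and it called 5428 genes (34.4%), with 2583 (16.3%) higher and 2845 (18%) lower. The 3 LPS libraries lay wholly above or wholly below the 3 PBS libraries for 11237 of the called genes and for 11897 (75.3%) of all tested genes. Rises were fewer than falls but reached much further. At least 16-fold rises numbered 789 and at least 16-fold falls 296, and changes of at least 100-fold numbered 227 upward and 15 downward. Transcripts of the 2583 genes that rose by the 2-fold test made up 9.56 to 10.4% of all TPM in PBS libraries and 47.8 to 49.4% in LPS libraries. Those of the 2845 genes that fell went from 6.86 to 7.55% to 0.901 to 0.959%. By TPM, the 10 most abundant messenger RNAs of LPS-treated cells included the chemokines Ccl3 (20780 TPM), Ccl4 (16985 TPM) and Cxcl10 (13108 TPM) and cytoplasmic actin Actb (16178 TPM). Ccl3, Ccl4 and Cxcl10 had stood at 52.5, 28.7 and 8.67 TPM in PBS. In bulk RNA, fewer cells of a kind and less RNA per cell cannot be told apart. The p-values measure the spread between libraries of 1 group, estimated over all 12 libraries with those of Fes-/- cells. A fit of the 6 wild-type libraries alone called 10918 genes.

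**Figure D1:**
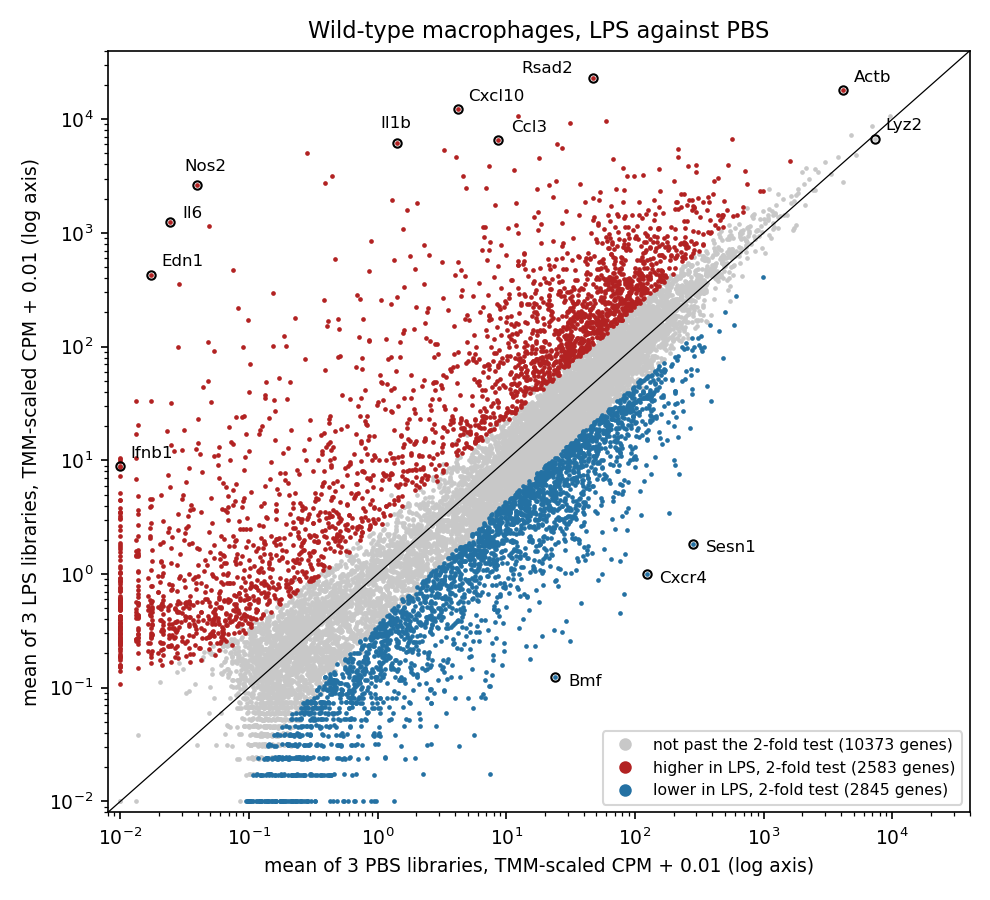
Mean level of each of the 15801 tested genes in PBS (x axis) and LPS (y axis) libraries, in TMM-scaled counts per 1000000 plus 0.01 on log axes, with the diagonal marking equal levels. Red points are the 2583 genes higher and blue points the 2845 genes lower by the test against 2-fold; Nos2 and Il6 lie at the far upper left, Bmf, Sesn1 and Cxcr4 far below the diagonal, and Lyz2 close to it.

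For genes whose levels follow, the 3 LPS libraries lay wholly outside the range of the 3 PBS libraries unless overlap is stated. The direction of small changes depended on how libraries were scaled. Levels below are counts per 1000000 (CPM) scaled by TMM (trimmed mean of M values), a method that assumes that most genes do not change, and under it the median log2 fold change over all tested genes was -0.07. Scaling by library totals alone moved that median to -0.98, a shift of -0.91, and then 2579 genes (16.3%) were higher and 10828 (68.5%) lower. All 6137 genes lower under TMM were also lower under library totals, and all 2579 genes higher under library totals were higher under TMM. Another 1577 genes were called higher under TMM and lower under library totals. A rise of less than about 0.91 on the log2 scale is therefore a rise relative to the other genes only. By the 2-fold test, 1654 genes rose and 2845 fell under both scalings. No spike-in values were used here to choose between the scalings, and the counts of each list are given under TMM and then under library totals. The shares over all tested genes to set beside every list are 34.6% higher and 38.8% lower under TMM. Under library totals they are 16.3% and 68.5%.

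**Figure D2:**
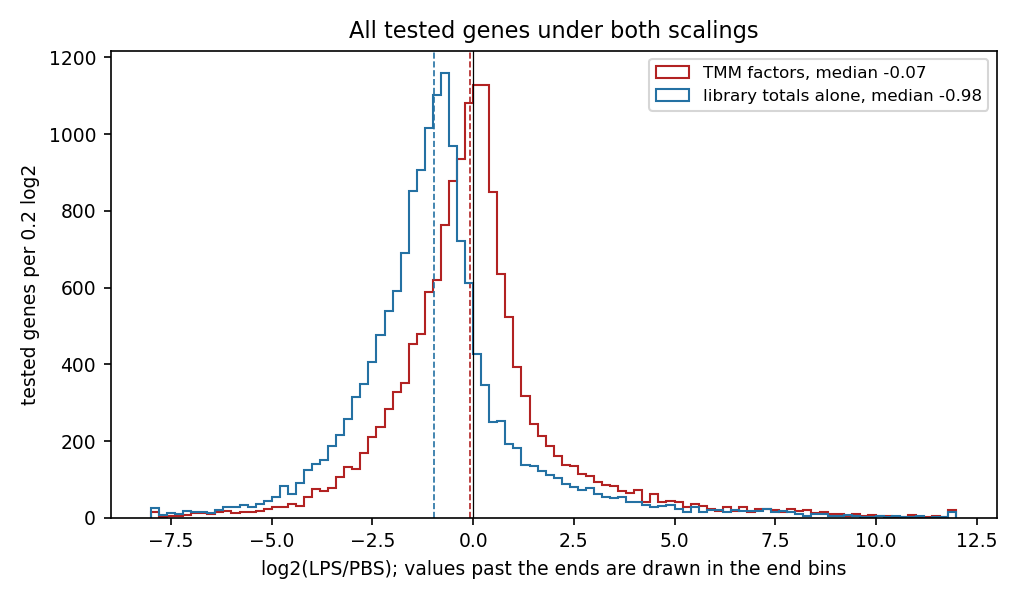
Distribution of log2(LPS/PBS) over the 15801 tested genes, in bins of 0.2, with TMM factors (red) and with library totals alone (blue). Dashed lines mark the medians of -0.07 and -0.98: the shape is the same and the position shifts.

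The receptor itself fell slightly, and its partners and adaptors changed in both directions. Tlr4 was at 109, 98.5 and 93.1 CPM in PBS libraries 1 to 3 and 75.5, 79.2 and 72.7 CPM in LPS, a log2 change of -0.40 ± 0.09 (SE, n = 3 per group; adjusted p = 0.000634). The co-receptor Cd14 went from 205, 197 and 245 CPM to 1543, 1646 and 1643 CPM, and its log2 change was 2.9 ± 0.12 (adjusted p = 1.39e-11). The adaptor Myd88 rose by 3.03 on the log2 scale, the kinase Irak2 by 3.80 and the MAP kinase kinase kinase Map3k8 by 3.70, whereas Irak4, Irak1 and the TRIF-side adaptor Ticam2 fell to log2 changes of -1.19, -0.41 and -1.37. Of 26 tested members of LPS recognition and proximal signalling, 17 were higher, 5 lower and 4 not called, with a median of 0.89; under library totals 9 were higher and 12 lower. The other Toll-like receptors diverged. Tlr2, which binds bacterial lipoproteins, rose from 62.1, 71.4 and 86.3 CPM to 1415, 1399 and 1394 CPM, and Tlr3, which binds duplex RNA, from 19.5, 19.7 and 19.4 to 390, 389 and 414 CPM. Tlr13, a sensor of bacterial ribosomal RNA, fell from 303, 203 and 222 CPM to 57.6, 44.4 and 54.5 CPM. Groups did not overlap for any of these 3 receptors.

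NF-kB subunits and their inhibitors rose as a body: 11 of 11 were higher under TMM, and all 11 also under library totals, with a median log2 change of 3.46. The 2 largest rises were those of inhibitors of the IkB family. Nfkbiz, the nuclear IkB-zeta that is needed for some secondary response genes, went from 11.1, 12.4 and 12 CPM to 1145, 1156 and 1226 CPM (log2 change 6.63 ± 0.14, adjusted p = 2.12e-14). Nfkbia, which holds NF-kB in the cytoplasm, went from 38.5, 34 and 49.6 CPM to 1797, 1880 and 1887 CPM (5.51 ± 0.14, adjusted p = 9.78e-14). Among the DNA-binding subunits, log2 changes were 4.25 for Nfkb2, 3.74 for Nfkb1, 3.33 for Rel, 2.49 for Relb and 1.65 for Rela. The promoters of 3 strongly raised genes are printed because each holds a match to a kappaB motif, the letters to which NF-kB binds. They are the 250 bases before the RefSeq start in GRCm38.p6, written 5′ to 3′ on the gene's strand, with kappaB matches (GGGANTTTC or GGANTTTCC on either strand, N being any base) in capitals. Nfkbia lies on the minus strand (chr12:55492648-55492897), Il6 on the plus strand (chr5:30012864-30013113) and Acod1 on the plus strand (chr14:103046762-103047011).
Nfkbia: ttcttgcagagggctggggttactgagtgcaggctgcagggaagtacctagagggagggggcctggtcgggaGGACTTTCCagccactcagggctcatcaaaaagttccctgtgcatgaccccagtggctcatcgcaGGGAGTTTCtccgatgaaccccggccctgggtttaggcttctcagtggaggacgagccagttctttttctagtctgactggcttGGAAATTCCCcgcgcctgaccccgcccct
Il6: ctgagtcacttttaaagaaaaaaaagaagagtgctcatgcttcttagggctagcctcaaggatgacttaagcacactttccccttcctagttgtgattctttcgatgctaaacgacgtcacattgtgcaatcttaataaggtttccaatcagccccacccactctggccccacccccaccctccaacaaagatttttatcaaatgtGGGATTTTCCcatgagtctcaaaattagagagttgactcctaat
Acod1: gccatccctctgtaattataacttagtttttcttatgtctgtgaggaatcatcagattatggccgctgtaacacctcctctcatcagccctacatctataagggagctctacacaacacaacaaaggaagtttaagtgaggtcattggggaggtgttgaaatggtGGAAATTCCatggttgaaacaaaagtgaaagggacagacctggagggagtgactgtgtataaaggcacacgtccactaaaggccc
The Nfkbia promoter held 3 separate matches, at 178 to 170, 113 to 105 and 29 to 20 bases before the start. The Il6 match ended 35 bases and the Acod1 match 77 bases before the start. A match describes letters only; binding was not measured.

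Transcripts that restrain the signal were among the most strongly raised. Tnfaip3, the ubiquitin-editing enzyme A20, went from 10.3, 10.5 and 13.6 CPM to 3389, 3796 and 3595 CPM (log2 change 8.29 ± 0.15, adjusted p = 8.3e-15). Socs3, an inhibitor of cytokine receptor signalling, went from 3, 4.6 and 6.2 CPM to 3000, 3322 and 3101 CPM (9.42 ± 0.29, adjusted p = 5.69e-12), and Socs1 changed by 9.08 on the log2 scale. In LPS Socs3 reached 2622 TPM and Tnfaip3 1200 TPM, beside 3650 TPM for the cytokine gene Tnf and 656 TPM for Il10. Of 25 tested feedback regulators 19 were higher and 6 lower, with a median of 3.79, and under library totals 17 were higher and 8 lower. The 6 that fell included Zfp36l1 (-3.75) and Zfp36l2 (-3.55), which destabilise AU-rich messenger RNAs, and Sigirr (-1.82), an inhibitory member of the IL-1 receptor family. MAP kinase phosphatases split in the same way. Dusp2 rose from 1.37, 1.03 and 1.57 CPM to 556, 593 and 579 CPM and Dusp1 from 18.8, 15.9 and 18.4 CPM to 1382, 1697 and 1531 CPM. Dusp6, a phosphatase of ERK whose own transcript follows ERK activity, fell from 51.4, 9.9 and 27.6 CPM to 3.6, 2.87 and 2.98 CPM (log2 change -3.24 ± 0.62, adjusted p = 0.000963), and its PBS libraries were far apart. In all, 6 of 10 phosphatases were higher, 2 lower and 2 not called (6 higher and 3 lower under library totals).

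Transcription factors changed in both directions. Of 31 AP-1, EGR and other immediate-early factors, 26 were higher and 5 lower (median 2.63; 20 higher and 6 lower under library totals). Junb went from 63.4, 77.1 and 75.6 CPM to 1471, 1472 and 1449 CPM, and Nr4a3 changed by 7.85 on the log2 scale. Klf2, which is known to restrain inflammatory activation, fell by 2.57 on the log2 scale. Over all tested genes 34.6% were higher and 38.8% lower, and under library totals 16.3% and 68.5%. Beside these shares, 13 of 29 macrophage lineage factors were higher, 11 lower and 5 not called, with a median of 0.09. Under library totals the same number, 13, were higher and 15 lower. Within that list Spi1 (PU.1), the factor that defines the lineage, rose by 1.55 and Cebpb by 3.72, whereas Cebpa changed by -4.62. Irf8, a partner of PU.1, rose from 100, 129 and 111 CPM to 640, 557 and 661 CPM.

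Inflammatory cytokines had the highest median of the 52 gene lists, 7.28 on the log2 scale, or 7.04 with genes at 0 in PBS set to their lower bound. Of 35 tested, 29 were higher, 4 lower and 2 not called, and under library totals the counts were 29 and 6. Il6 was practically silent in PBS, with 0.00967, 0 and 0.0335 CPM (4 counts in all), and stood at 1382, 989 and 1379 CPM in LPS. Its fitted log2 change was 16.25 ± 0.44 (adjusted p = 4.69e-12) and rests on those few PBS counts, whose counting error the ± value may understate. Il1a rose from 0.184, 0.253 and 0.379 CPM to 5045, 4614 and 5608 CPM, and Il1b from 0.397, 1.47 and 2.35 CPM to 5524, 6511 and 6462 CPM (14.20 and 12.11 on the log2 scale). For these 3 cytokines every LPS library stood at 989 CPM or more and every PBS library at 2.35 CPM or less. Tnf went from 8.57, 3.08 and 9.02 CPM to 2811, 1921 and 2691 CPM (8.49 ± 0.56, adjusted p = 1.78e-07). Il12b, the p40 subunit shared by IL-12 and IL-23, reached 673 and 611 CPM in LPS libraries 1 and 3 but only 145 CPM in library 2, from at most 0.0781 CPM in PBS. Anti-inflammatory cytokines rose at the same time. Il10 went from 2.65, 2.15 and 2.04 CPM to 317, 443 and 306 CPM, and Il1rn, the IL-1 receptor antagonist, from 20.8, 13.5 and 19.7 CPM to 4084, 5202 and 4252 CPM. LPS library 2 was the lowest of the LPS libraries for Il6, Tnf and Il12b and the highest for Il10 and Il1rn. The p28 subunit gene Il27 rose by 9.93, Il15 by 4.75, Il18 by 3.69 and Csf1, which encodes M-CSF itself, by 6.59 on the log2 scale. The 4 cytokines that fell were Il16 (-4.78), Gdf15 (-3.05), Vegfa (-1.82) and Tnfsf13b (-0.55); the call for Tnfsf13b was lost without PBS library 2 (adjusted p = 0.0923) or LPS library 1 (adjusted p = 0.0717).

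**Figure D3:**
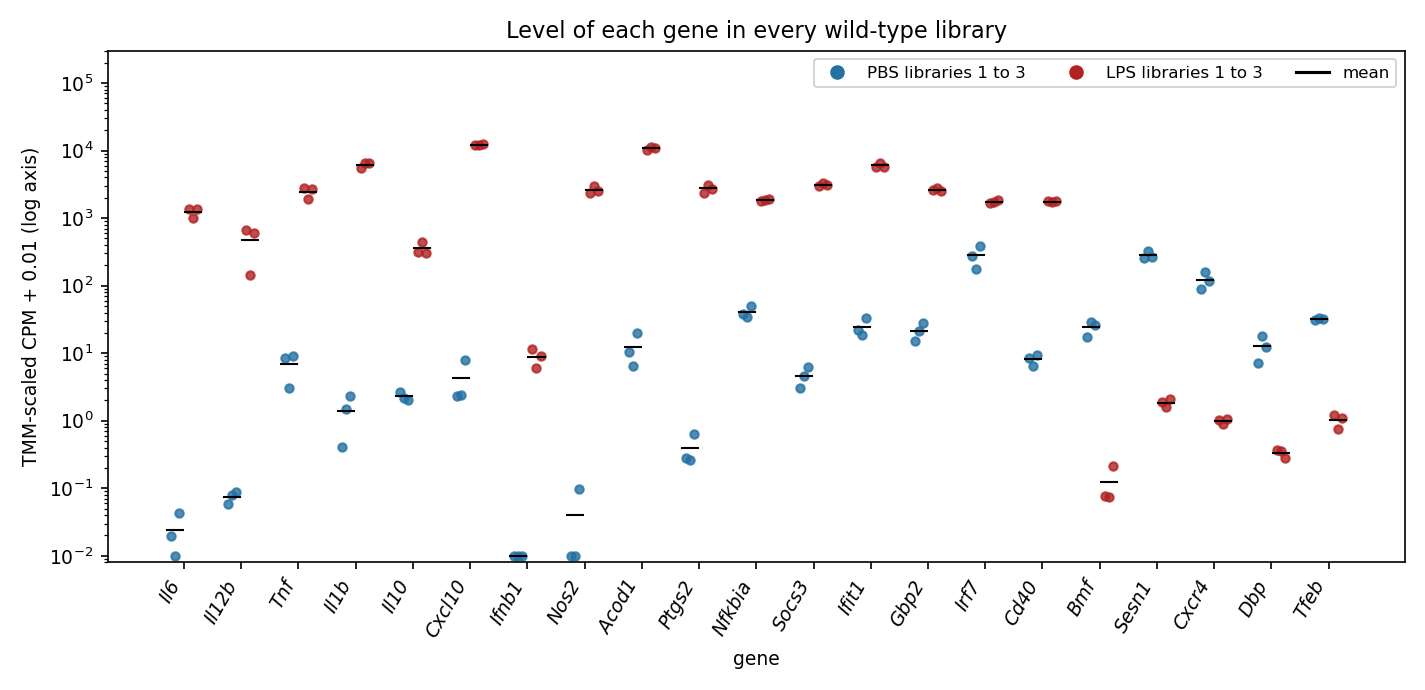
Level of 21 named genes in every wild-type library, in TMM-scaled counts per 1000000 plus 0.01 on a log axis; blue points are the 3 PBS and red points the 3 LPS libraries, and black bars are means. Groups are separate for every gene drawn, with a wide gap for Il6 and Il1b and a narrow one for Irf7, and the low LPS point of Il12b (145 CPM) is library 2.

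Chemokines, which draw other leukocytes to the site, rose with the cytokines. Of 12 CXC chemokines 10 were higher, none lower and 2 not called (median 6.20; 9 higher and 1 lower under library totals). Of 15 CC and CX3C chemokines 12 were higher and 2 lower (median 6.87; 12 and 3 under library totals). Cxcl10, a ligand of CXCR3 on T cells, went from 2.32, 2.37 and 7.98 CPM to 11967, 12210 and 12546 CPM (log2 change 11.50 ± 0.61, adjusted p = 1.99e-08). The inflammatory chemokine gene Ccl3 went from 8.51, 7.95 and 9.48 CPM to 6930, 5951 and 6847 CPM, and its neighbour Ccl4 from 4.34, 3.48 and 4.38 CPM to 4680, 4397 and 4810 CPM. The neutrophil attractant Cxcl2 reached 900, 618 and 826 CPM from at most 3.56 CPM. The monocyte attractants Ccl2 and Ccl7 had uneven base levels, Ccl2 with 8.91, 0.968 and 4.61 CPM in PBS libraries 1 to 3, and the level in PBS library 2 was the lowest for both; in LPS Ccl2 stood at 2943, 1683 and 2765 CPM. Ccl9, already at 499, 482 and 589 CPM in PBS, rose less, to 3548, 4140 and 4117 CPM. Ccl17 had no count in PBS and 3.29, 0.984 and 6.01 CPM in LPS, at least 323-fold higher against a floor of 3 counts over the PBS group.

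Receptors for chemokines and chemoattractants did not follow one direction: 10 of 17 were higher, 6 lower and 1 not called, and under library totals 7 were higher and 7 lower. Cxcr4, the CXCL12 receptor that retains cells in bone marrow, went from 90.4, 160 and 119 CPM to 1.02, 0.898 and 1.04 CPM (log2 change -6.96 ± 0.31, adjusted p = 1.14e-09), the largest fall in the list. Ccr2, the receptor for Ccl2, fell from 71.4, 128 and 126 CPM to 18.2, 26 and 35.8 CPM, and Cx3cr1, the fractalkine receptor, by 2.04 on the log2 scale. Ccrl2, a non-signalling receptor that presents chemerin, rose from 3.59, 4.41 and 4.54 CPM to 570, 536 and 545 CPM, and the formyl peptide receptor Fpr2 from 1.64, 1.31 and 1.76 CPM to 131, 122 and 143 CPM. Cytokine receptors showed the same division, with 18 of 30 higher and 10 lower (15 and 12 under library totals). The TNF receptor Tnfrsf1b rose by 3.74, Il15ra by 5.97 and Il4ra by 3.62, and Ifngr1, the ligand-binding chain of the interferon-gamma receptor, went from 203, 193 and 186 CPM to 67.5, 69.9 and 74 CPM. Il6ra and Il6st, the receptor chains for IL-6, had log2 changes of -2.28 and -1.58 while Il6 itself rose.

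All tested genes of the interferon arm's effector list rose, and the ligand appeared from nothing. Ifnb1 had no count in any PBS library and 11.7, 6.03 and 9 CPM in LPS libraries 1 to 3, at least 827-fold higher against a floor of 3 counts over the PBS group (adjusted p = 4.79e-07). It was the only interferon ligand of the 6 listed that had enough counts to test, and both receptor chains, Ifnar1 and Ifnar2, were higher (2.26 and 1.28). All 59 tested interferon-stimulated antiviral effectors were higher, under TMM and under library totals, with a median of 3.75; their summed level went from 7605 to 10660 TPM in PBS to 75075 to 78645 TPM in LPS. Rsad2 (viperin), which blocks the growth of viral RNA, went from 36.1, 41.9 and 62.4 CPM to 22298, 24399 and 22985 CPM (log2 change 8.95 ± 0.39, adjusted p = 3.85e-10). Ifit1, which binds foreign 5′ ends of RNA, went from 22.3, 18.7 and 33.4 CPM to 5795, 6597 and 5761 CPM (7.93 ± 0.48, adjusted p = 5.61e-08). Mx1, a dynamin-like antiviral GTPase, and Isg15, a ubiquitin-like modifier, changed by 7.67 and 5.92. The base level of this list was not the same in the PBS libraries: of its 59 genes, 49 were lowest in library 2 and 51 highest in library 3. Regulators of the pathway rose too, 17 of 19 IRF, STAT and JAK genes (median 1.98; 13 higher and 3 lower under library totals). Irf7 went from 276, 178 and 389 CPM to 1666, 1720 and 1830 CPM. Irf3, the factor that starts Ifnb1 transcription and is regulated by phosphorylation, fell by 0.72 on the log2 scale.

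The promoters of 5 genes of this arm are printed in the same form, with kappaB matches and matches to the interferon-stimulated response element (ISRE, GAAANNGAA on either strand) in capitals. They are grouped by exact matches to these letters. Ifnb1 (minus strand, chr4:88522795-88523044) held a kappaB match and no ISRE match. Cxcl10 (minus strand, chr5:92348890-92349139) and Gbp5 (plus strand, chr3:142496684-142496933) held both. Rsad2 (minus strand, chr12:26456453-26456702) and Ifit1 (plus strand, chr19:34640639-34640888) held ISRE matches and no kappaB match. Sites that differ from these letters were not counted, so a promoter without a match may still hold such an element.
Ifnb1: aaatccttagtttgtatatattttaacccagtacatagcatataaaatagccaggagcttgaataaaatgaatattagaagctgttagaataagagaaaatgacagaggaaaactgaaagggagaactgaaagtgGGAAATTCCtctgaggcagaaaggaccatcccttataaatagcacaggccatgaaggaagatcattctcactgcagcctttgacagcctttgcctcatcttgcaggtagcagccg
Cxcl10: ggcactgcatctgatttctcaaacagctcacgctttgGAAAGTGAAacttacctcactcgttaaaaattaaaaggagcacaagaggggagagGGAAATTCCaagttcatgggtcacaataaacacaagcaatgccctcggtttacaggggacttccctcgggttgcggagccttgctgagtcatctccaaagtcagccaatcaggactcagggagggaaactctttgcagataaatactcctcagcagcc
Gbp5: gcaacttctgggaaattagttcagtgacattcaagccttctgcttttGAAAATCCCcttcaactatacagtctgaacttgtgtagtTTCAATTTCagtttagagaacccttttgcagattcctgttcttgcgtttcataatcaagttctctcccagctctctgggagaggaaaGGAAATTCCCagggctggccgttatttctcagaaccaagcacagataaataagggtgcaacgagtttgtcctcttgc
Rsad2: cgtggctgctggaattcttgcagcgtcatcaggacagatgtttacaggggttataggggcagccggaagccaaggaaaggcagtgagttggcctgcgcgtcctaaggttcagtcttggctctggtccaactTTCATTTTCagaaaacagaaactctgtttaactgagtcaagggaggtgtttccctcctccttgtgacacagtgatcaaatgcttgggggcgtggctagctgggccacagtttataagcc
Ifit1: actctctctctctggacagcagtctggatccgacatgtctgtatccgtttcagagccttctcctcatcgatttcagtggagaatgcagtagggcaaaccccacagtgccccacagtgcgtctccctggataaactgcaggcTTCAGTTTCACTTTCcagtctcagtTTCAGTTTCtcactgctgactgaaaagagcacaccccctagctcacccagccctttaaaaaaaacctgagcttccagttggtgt
In Cxcl10 the ISRE match lay at 213 to 205 and the kappaB match at 158 to 150 bases before the start. In Ifit1 the ISRE matches lay at 109 to 95, where 2 overlap, and at 84 to 76 bases. The 3 genes with a kappaB match, Ifnb1, Cxcl10 and Gbp5, and the 2 without one, Rsad2 and Ifit1, were picked with their rise known. That all 5 rose therefore says nothing of the motifs.

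Proteins that attack microbes inside cells, and the sensors of their nucleic acids, rose alongside. All 19 tested guanylate-binding proteins and immunity-related GTPases were higher (median 6.22), 18 of them also under library totals. Gbp5 went from 4.51, 8.3 and 9.34 CPM to 3808, 4171 and 3661 CPM and Gbp2 from 15, 21.5 and 27.8 CPM to 2565, 2783 and 2492 CPM. Irgm1, which regulates the other immunity-related GTPases, rose by 3.92. Members of this family, like those of the Ifi200, Slfn and Ifit families, have near-identical copies, and how reads were split among copies is not stated, so values of single members are uncertain. Among nucleic acid sensors 11 of 12 were higher and 1 lower (median 3.62; 10 and 2 under library totals). The RNA sensor Ifih1 (MDA5) went from 53.8, 47.1 and 58.5 CPM to 2336, 2335 and 2194 CPM and the DNA sensor Cgas from 29.2, 22.6 and 27.1 CPM to 111, 109 and 125 CPM. Mavs, the adaptor on which the RNA sensors act, was the exception and fell from 50.1, 60.5 and 55.6 CPM to 21.6, 22.2 and 21.5 CPM.

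Antigen presentation changed unequally between its classes. All 17 MHC class I and peptide-loading genes were higher (median 1.59), and 10 stayed higher and 2 were lower under library totals. The peptide transporter Tap1 rose from 124, 113 and 158 CPM to 861, 908 and 907 CPM, and Nlrc5, the class I transactivator, by 3.80. The class I light chain B2m was at 1995, 2293 and 2160 CPM and then 3789, 3579 and 3715 CPM, a log2 change of 0.78 under TMM that was -0.13 and not called under library totals. Of 19 proteasome genes 18 were higher, led by the inducible Psmb10 (2.67) and the activator Psme2 (2.44); under library totals 9 were higher and 4 lower. Class II genes had smaller changes, with 7 of 14 higher, 2 lower and 5 not called (median 0.40), and under library totals none was higher and 8 were lower. Ciita, the class II transactivator, was at 1.28, 4.5 and 2.3 CPM in PBS and 4.05, 4.98 and 7.25 CPM in LPS, and the groups overlapped (log2 change 1.02, adjusted p = 0.0284); the call was lost without PBS library 1 or 3 or LPS library 2 or 3, with adjusted p of 0.0523 to 0.125, and under library totals (log2 change 0.11). Co-stimulation and checkpoint genes, surface ligands and receptors, rose strongly, with 19 of 22 higher, 2 lower and 1 not called. The median was 4.25, and under library totals 16 were higher and 3 lower. Cd40 went from 8.35, 6.49 and 9.46 CPM to 1772, 1744 and 1763 CPM, and the PD-1 ligand Cd274 from 17.4, 27.8 and 24.1 CPM to 2095, 2209 and 1883 CPM, while Cd86 rose less, from 5.21, 11.6 and 13.8 CPM to 106, 141 and 170 CPM. In LPS the receptor gene Cd40 stood at 1249 TPM and the ligand gene Cd274 at 1374 TPM.

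In metabolism, a few enzymes rose from low to high levels. Nos2, the inducible nitric oxide synthase at chr11:78920787-78960254, had 8 counts in all PBS libraries together, 0, 0 and 0.0892 CPM. In LPS it stood at 2330, 3006 and 2550 CPM (fitted log2 change 16.40 ± 0.46, adjusted p = 6.84e-12). That change too rests on few PBS counts, whose counting error the ± value may understate. The cationic amino acid carrier Slc7a2, which brings in arginine, the substrate of Nos2, rose from 5, 2.66 and 1.86 CPM to 642, 582 and 448 CPM. Arg1, which competes for arginine, stayed under 0.4 CPM in every library and was not called. Acod1, which makes itaconate from a TCA cycle intermediate, went from 10.4, 6.45 and 20.1 CPM to 10150, 11131 and 11051 CPM (9.77 ± 0.62, adjusted p = 1.05e-07). Beside Acod1, the pyruvate dehydrogenase kinase genes Pdk3 (1.29) and Pdk2 (-3.06) changed in opposite directions. Over the 30 genes of the itaconate and TCA list 12 were higher, 7 lower and 11 not called (median 0.14), beside 34.6% higher and 38.8% lower over all tested genes. Under library totals 2 of the list were higher and 26 lower, beside 16.3% and 68.5% over all tested genes. In glycolysis, Pfkfb3, which makes the activator of phosphofructokinase, rose from 8.97, 12.2 and 9.77 CPM to 959, 1357 and 995 CPM, Hif1a by 2.91 and the glucose carrier Slc2a1 by 2.66. Over that list 18 of 29 were higher and 5 lower (median 0.40), against 9 and 16 under library totals. Nuclear genes of oxidative phosphorylation had a median of 0.32 with 25 of 32 higher and none lower, but under library totals 1 was higher and 31 lower; Atp5b, for example, changed by 0.67 and by -0.24 under the respective scalings. The same held for 39 cytosolic ribosomal proteins, of which 28 were higher and none lower under TMM and all 39 lower under library totals.

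Lipid genes changed in both directions. Ptgs2 (COX-2), which starts prostaglandin synthesis, rose from 0.271, 0.253 and 0.625 CPM to 2375, 3131 and 2727 CPM, and Ptges, which makes prostaglandin E2, from 1.29, 1.01 and 1.52 CPM to 203, 334 and 179 CPM. Ptgs1, the constitutive cyclooxygenase (-0.84), Hpgds, which makes prostaglandin D2 (-1.22), and Hpgd, which degrades prostaglandins (-1.80), fell, and the prostaglandin and leukotriene list had 7 higher, 7 lower and 2 not called (5 higher and 10 lower under library totals). Cholesterol synthesis and uptake had 9 of 26 higher and 8 lower (4 and 16 under library totals). Lipid storage, oxidation and PPAR targets had 10 of 24 higher and 6 lower (4 and 17). Over all tested genes 34.6% were higher and 38.8% lower, and under library totals 16.3% and 68.5%. Ch25h, which makes 25-hydroxycholesterol, went from 0.745, 0.138 and 0.48 CPM to 604, 526 and 633 CPM. Of 16 LXR target and cholesterol efflux genes, 2 were higher, 7 lower and 7 not called (median -0.33), and under library totals none was higher and 12 were lower. Abcg1, which exports cholesterol to HDL, fell from 183, 259 and 252 CPM to 42, 44.2 and 64.4 CPM. Apoe was uneven between replicates, with 757 CPM in PBS library 3 and 544 CPM in LPS library 3 against 1315 to 1689 CPM in the other libraries, and did not pass the test (adjusted p = 0.756); with the replicate number as a block it did, at a log2 change of -0.28 (adjusted p = 0.0191), as it did without a filter on low counts (-0.32, adjusted p = 0.0069).

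Genes that govern cell death changed in both directions. In the inflammasome, pyroptosis and necroptosis list 14 of 21 were higher and 5 lower (median 1.02; 10 higher and 8 lower under library totals). Nlrp3 rose from 70.7, 72.8 and 65.7 CPM to 1095, 1233 and 1079 CPM, Casp4, which encodes the mouse caspase-11 that binds cytosolic LPS, by 3.57 and Casp1 by 2.66. P2rx7, the ATP-gated channel that triggers NLRP3, fell from 86.6, 123 and 102 CPM to 16.2, 19.9 and 19.7 CPM. Among BCL2 family and survival genes 17 of 24 were higher and 5 lower (11 and 9 under library totals). The anti-apoptotic Bcl2a1d rose by 7.60, although its near-identical copies make the value of a single member uncertain. Bmf, a pro-apoptotic BH3-only gene, went from 17.6, 29.1 and 25.8 CPM to 0.0667, 0.0641 and 0.207 CPM (log2 change -7.70 ± 0.47, adjusted p = 1.8e-08). The pro-apoptotic Pmaip1 and Bbc3 had log2 changes of -2.64 and -1.75.

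The lists with the lowest medians were the circadian clock, the cell cycle and the regulators of growth and nutrient signalling. Of 17 clock genes 12 were lower, 4 higher and 1 not called (median -2.65; 13 lower and 2 higher under library totals). Dbp, an output gene of the clock, went from 7.24, 18.1 and 12.4 CPM to 0.356, 0.342 and 0.269 CPM, Tef from 29.3, 49.5 and 36.5 CPM to 2.45, 3.04 and 2.49 CPM, and Per1 from 15.1, 23.5 and 16.3 CPM to 1.76, 2.2 and 1.55 CPM. The activator Arntl (BMAL1) and the repressors Per3 and Nr1d1 fell together, by 2.38, 3.76 and 4.03 on the log2 scale. Nfil3, a repressor of the genes that Dbp activates, rose from 5.2, 5.99 and 5.2 CPM to 72.5, 85.6 and 79.8 CPM. PBS library 2 was the highest of the PBS libraries for Dbp, Tef, Per1, Per3 and Nr1d1. Of 40 cell cycle genes 33 were lower, 3 higher and 4 not called (median -1.05; 36 lower and 3 higher under library totals). The factors that start S phase fell furthest, E2f2 from 60.1, 50.5 and 55.7 CPM to 1.07, 0.492 and 1.43 CPM and Cdc6 by 4.58 on the log2 scale. The proliferation marker Mki67 fell from 905, 1057 and 1020 CPM to 342, 448 and 440 CPM and Top2a by 0.68. The 3 that rose were the inhibitor Cdkn1a (p21), from 239, 235 and 308 CPM to 2065, 1823 and 1992 CPM, the G1 cyclin Ccnd2, from 10.2, 2.38 and 7.21 CPM to 978, 1159 and 1213 CPM, and Cdk6 (2.06). For Ccnd1 the groups overlapped, at 147, 21.7 and 57.2 CPM in PBS and 89.4, 48.4 and 59.7 CPM in LPS, and it was called only without a filter on low counts (-0.29, adjusted p = 0.0098).

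Among 22 sestrins, FOXO factors and other regulators of growth and nutrient signalling, 15 were lower, 4 higher and 3 not called. The median was -1.05, and under library totals 21 were lower and 1 higher. The summed level of the list went from 1451 to 2116 TPM in PBS to 237 to 284 TPM in LPS. Sesn1, a leucine-responsive inhibitor of mTORC1, went from 258, 324 and 265 CPM to 1.87, 1.58 and 2.07 CPM (log2 change -7.26 ± 0.21, adjusted p = 2.9e-12). Foxo3 fell from 97.1, 139 and 98.6 CPM to 3.6, 3.1 and 3.15 CPM and Foxo1 from 15.2, 16.9 and 14.6 CPM to 4.96, 5.2 and 4.93 CPM. Txnip, which limits glucose uptake, went from 444, 749 and 580 CPM to 155, 128 and 179 CPM. The 4 that rose were Rictor (2.31), Mtor (0.70), Nprl3 (0.53) and Rptor (0.43), and under library totals Rictor was still higher while the other three changed by -0.22, -0.38 and -0.48. Of 23 autophagy genes 13 were lower and 8 higher, beside 38.8% and 34.6% over all tested genes, and under library totals 19 were lower and 4 higher. Log2 changes were -2.43 for Ulk1, the initiating kinase, and 1.47 for the cargo receptor Sqstm1. Tfeb, the transcription factor of lysosome and autophagy genes, fell from 30.7, 33.7 and 31.8 CPM to 1.22, 0.748 and 1.1 CPM (-4.97 ± 0.15, adjusted p = 3.96e-13). The lysosomal list itself had a median of -0.01, with 8 higher, 7 lower and 13 not called, but under library totals 1 was higher and 25 were lower (median -0.92).

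**Figure D4:**
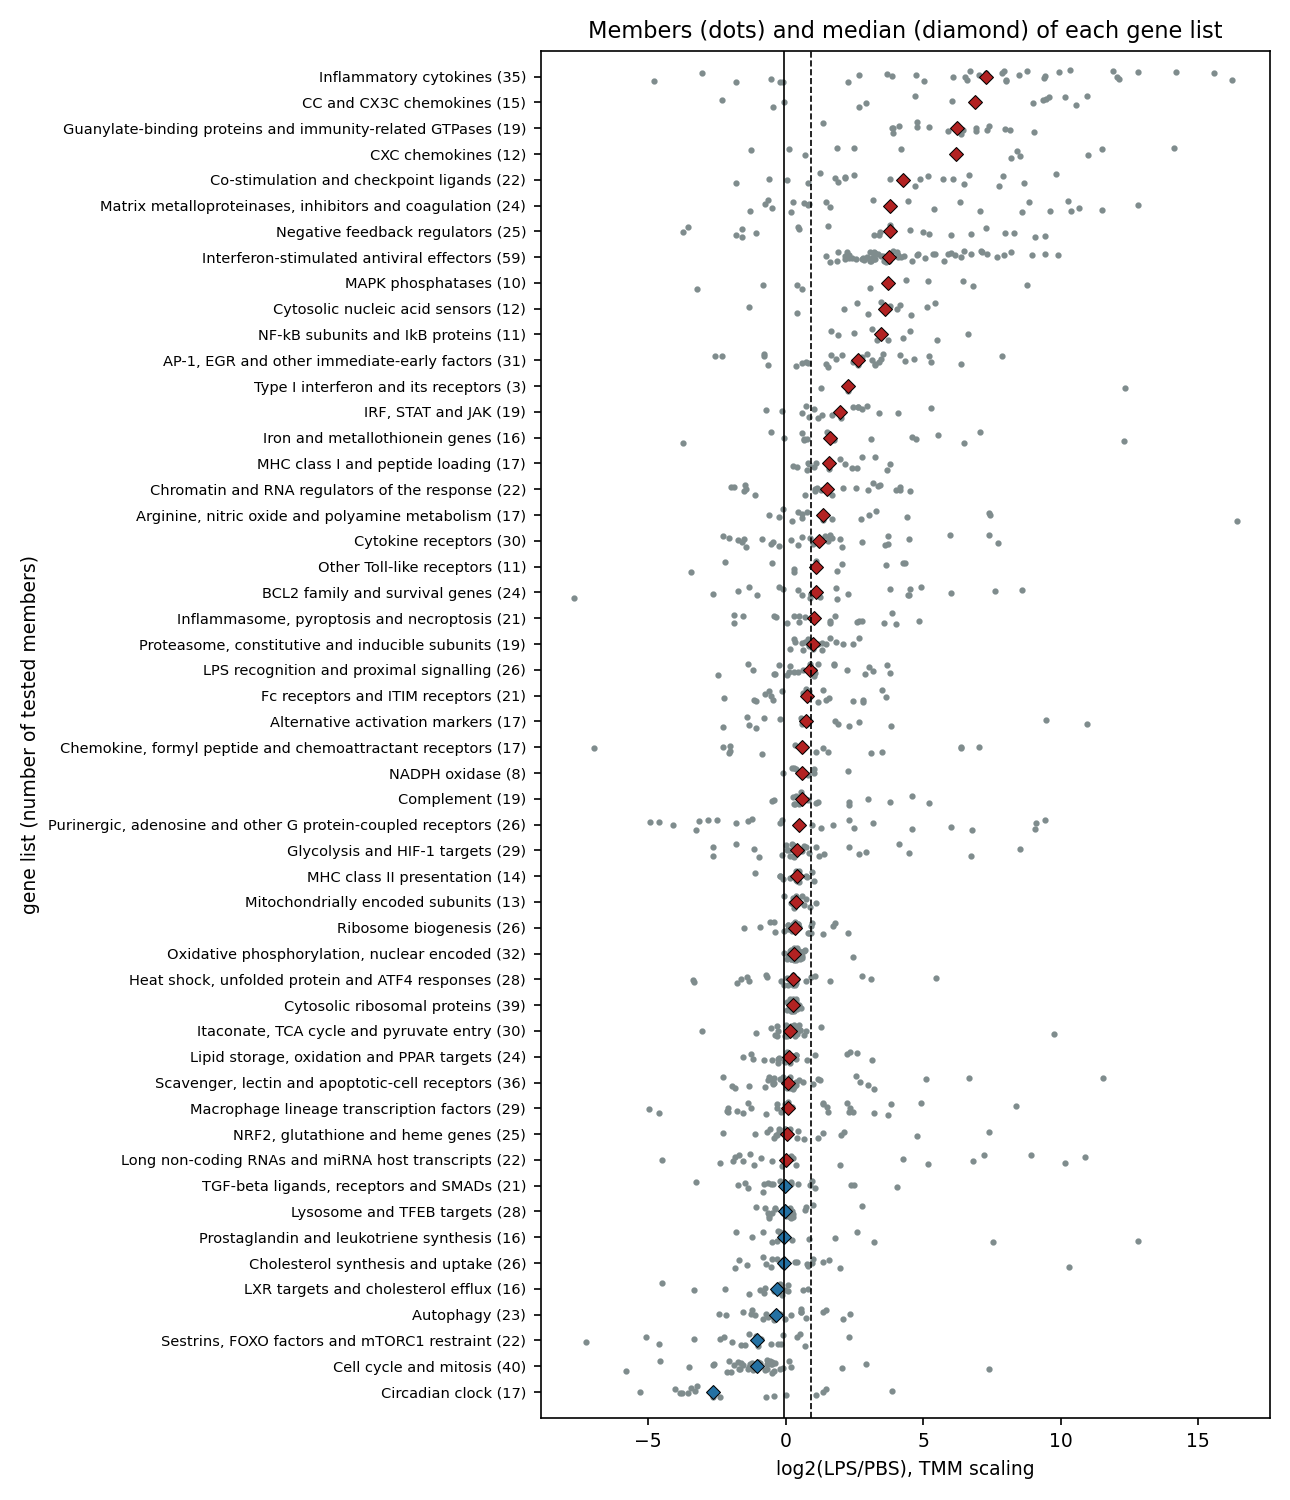
log2(LPS/PBS) of the tested members (dots) and the median (diamonds, red above 0 and blue at or below) of each of 52 gene lists, ordered by median, with the number of tested members in brackets. The solid line is the median of all tested genes (-0.07) and the dashed line marks 0.91, the size of change that library totals alone would take to 0; cytokine and chemokine lists lie far to the right and the clock, cell cycle and sestrin lists to the left.

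Genes for the matrix, the surface and iron complete the account. Of 24 protease, inhibitor and coagulation genes 16 were higher and 2 lower (median 3.81; 14 and 6 under library totals). The collagenase Mmp13 went from 3.59, 2.44 and 3.78 CPM to 5037, 5978 and 5061 CPM. Of 36 scavenger and lectin receptors 14 were higher, 10 lower and 12 not called, beside 34.6% higher and 38.8% lower over all tested genes; under library totals 8 were higher and 26 lower. Among them Olr1 (LOX-1) rose from at most 0.134 CPM to 216, 278 and 165 CPM, the glycolipid receptor Clec4e by 5.09 and Msr1 by 2.7, whereas Cd163 changed by -2.29, and the mannose receptor Mrc1 changed by -0.20 and was not called (adjusted p = 0.376). With the replicate number as a block, Mrc1 was called in 12 libraries (adjusted p = 0.0435) but not in the 6 wild-type libraries alone. It was also called without a filter on low counts (-0.28, adjusted p = 0.0185) and under library totals (-1.11). Adenosine receptors Adora2a and Adora2b rose by 9.11 and 6.00, Gpr84 by 6.78 and Hcar2 by 9.42, while the cannabinoid receptor Cnr2 fell from 29.6, 33.4 and 31.6 CPM to 0.222, 0.278 and 0.249 CPM. In iron handling Lcn2, which captures bacterial siderophores, rose from 0.996, 0.599 and 0.948 CPM to 105, 137 and 102 CPM and the exporter Slc40a1 (ferroportin) fell from 101, 159 and 105 CPM to 7.01, 12.3 and 8.1 CPM. Smad3 and the receptor Tgfbr1 of the TGF-beta pathway fell by 3.26 and 1.73. Of 22 chromatin and RNA regulators 16 were higher and 6 lower (12 and 7 under library totals); the H3K27 demethylase Kdm6b rose from 5.24, 14.1 and 6.99 CPM to 101, 87.9 and 93.6 CPM and the H3K27 methyltransferase Ezh2 fell from 73.3, 61.7 and 71.6 CPM to 24.8, 23.4 and 27.7 CPM. Mir155hg, the host transcript of miR-155, went from 0.116, 0.0922 and 0.0558 CPM to 171, 178 and 160 CPM.

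Some genes went from silence to expression or back. By the criterion of a mean under 0.5 TPM in 1 group and at least 10 TPM in the other, 70 called genes were switched on and 67 switched off. The first set held Ptgs2, Nos2, Il6, Il12b, Lipg, Cxcl3, Cxcl11 and Edn1, and the second Zfp395, E2f2, Lpar5, Cnr2, Tfeb, Bmf and Dbp. Endothelin-1, Edn1, had 2 counts in all PBS libraries and 415, 380 and 490 CPM in LPS, a ratio of 60027 with a 95% counting interval of 16616 to 495671. Sele (E-selectin), with 1 PBS count, had a ratio of 9313 (1671 to 367934). Of 4 tested endothelial markers, Cdh5, Kdr and Pecam1 were also higher in LPS, by 4.31, 4.47 and 2.19 on the log2 scale, Vwf was lower (-0.82), and Emcn and Cldn5 had no count; the endothelial list summed to 10.5 to 11.9 TPM in PBS and 19.8 to 23.8 TPM in LPS. Among genes with no PBS count at all, lower bounds were 979-fold for Ptx3, a secreted pattern recognition protein, 948-fold for Tmem200b, 925-fold for Ifitm7 and 823-fold for the metalloreductase Steap4. Zfp395, a zinc finger gene of the second set, went from 74.1, 92.3 and 65 CPM to 0.311, 0.321 and 0.705 CPM. These intervals and floors cover counting error only.

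Replicates were close for most raised genes, and in most exceptions it was library 2 that stood apart. Over 1268 genes that rose by the 2-fold test and had at least 50 CPM in LPS, the median coefficient of variation among LPS libraries was 6.24%, and the 90th percentile was 15.7%. In 13 of the 15 most variable, LPS library 2 lay farthest from the other libraries, above them for 10 genes and below them for 3. Besides Il12b (60.5%) the 15 included Timp1, at 93.7, 173 and 69 CPM, the metallothionein Mt2, at 424, 816 and 473 CPM, Ptges and Adora2b, which were highest in library 2. Ccl22, at 109, 50.5 and 146 CPM, was lowest there, as were Cxcl1 and Cxcl9, although for these last genes library 1 lay farthest from the others. PBS library 2 was likewise the farthest for 12 of the 15 most variable genes that fell. Without LPS library 2 the 2-fold test called 2564 genes higher and 2745 lower, and without PBS library 2 it called 2608 and 2635.

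Sequence in front of the changed genes differed in a few motifs. A RefSeq promoter was matched for 10733 of the 15801 tested genes, of which 1750 had risen and 2023 had fallen by the 2-fold test; Nos2 was not matched. In the 250 bases before the start, a kappaB match was found in 55 promoters of raised genes (3.14%), in 18 of lowered genes (0.89%) and in 1.58% of all tested genes, against 1.65% of all 32851 promoters in the RefSeq table. An ISRE match was found in 197 (11.3%), 96 (4.75%) and 6.51%, against 7.13% of the table. AP-1 sites (TGANTCA) were found in 7.71, 4.1 and 4.48% and STAT elements (TTCNNNGAA) in 7.71, 5.29 and 6.07% of raised, lowered and all tested genes. CCAAT boxes (CCAAT) were found in 33.3, 40.4 and 36.7% of raised, lowered and all tested genes, and Sp1 boxes (GGGCGG) in 53.8, 58.5 and 57.6%, so that for Sp1 the raised genes lay farther from the share of all tested genes. In the same order, shares were 7.6, 8.21 and 8.36% for the E-box (CACGTG), 2.86, 2.52 and 2.74% for the CRE (TGACGTCA) and 9.66, 6.33 and 6.85% for the TATA box (TATAAA). Both kappaB and ISRE were present in 9 promoters of raised genes (0.514%), in none of lowered genes and in 16 of all tested genes (0.149%). ISRE and STAT matches overlapped in 8 promoters of raised genes. By list, 10 of 11 guanylate-binding and immunity-related GTPase promoters and 20 of 47 interferon-stimulated promoters held an ISRE match. An ISRE match was also found in 6 of 28 ribosomal protein and 5 of 23 nuclear oxidative phosphorylation promoters. A kappaB match was found in 5 of 9 CXC chemokine promoters. It was found in 0 of 10 CC and CX3C chemokine promoters and in 1 of 8 promoters of NF-kB subunits and IkB proteins. Most raised genes held neither motif in this window, which says nothing of the factors.

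**Figure D5:**
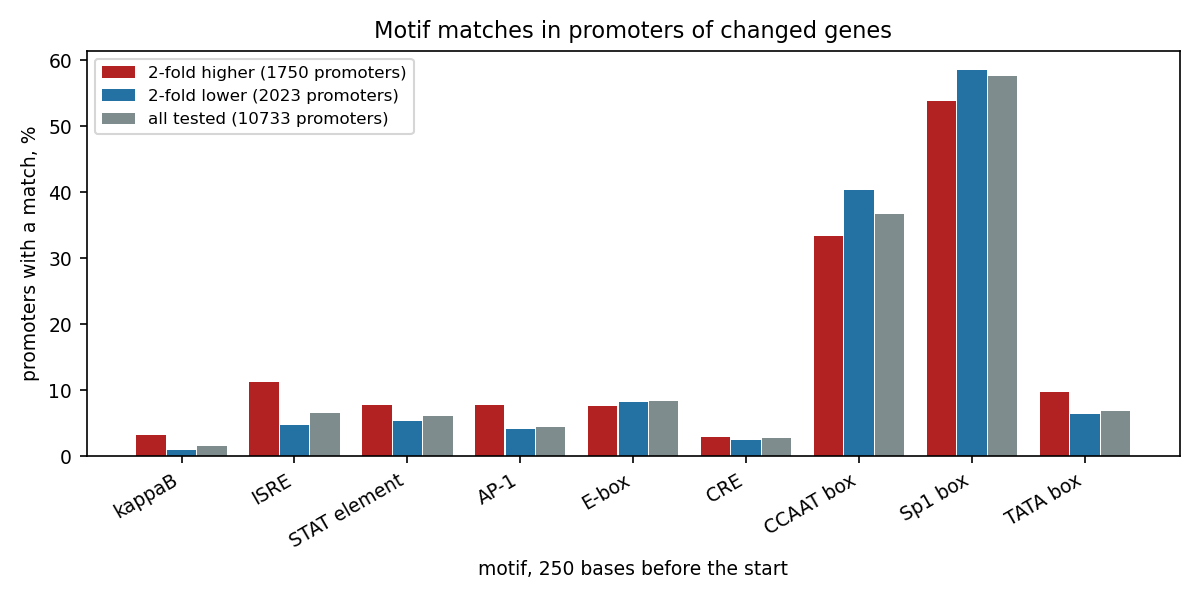
Share of promoters with at least 1 match to each of 9 motifs in the 250 bases before the start, for genes higher (red, 1750 promoters) and lower (blue, 2023 promoters) by the 2-fold test and for all tested genes (grey, 10733 promoters). Bars for kappaB, ISRE, the STAT element, AP-1 and the TATA box, and slightly that for the CRE, are taller for raised than for lowered genes. Bars for the CCAAT and Sp1 boxes, and slightly that for the E-box, are taller for lowered genes.

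Changed genes also lay in runs along the chromosomes (GRCm38). Runs of at least 3 adjacent tested protein-coding genes that all rose by the 2-fold test numbered 127. They held 493 of the 2064 raised protein-coding genes, and 105 runs held 363 of the 2249 that fell. In all, 12570 protein-coding genes were tested, and the number of runs that a random order would give was not tested. Under library totals there were 58 runs of raised and 615 of lowered genes, and with DESeq2 112 and 65. The longest run under TMM was the Ifi200 cluster with Aim2 at chr1:173350879-174248450, where 17 adjacent genes rose, with a median log2 change of 5.17. A stretch of 10 adjacent genes from Irgm1 to Ifi47 at chr11:48861968-49135387 rose with a median of 4.02. On the same chromosome stood the Ccl2, Ccl7, Ccl12 and Ccl8 run, the Slfn run at chr11:82951349-83215154 and the Ccl3 and Ccl4 run at chr11:83645046-83783754, each of 7 genes. The formyl peptide receptors Fpr1, Fpr2 and Fpr3 belonged to a run of 8 at chr17:17402672-17971677. The longest runs of lowered genes had 8 members, among them the zinc finger genes from Zfp235 to Zfp94 at chr7:24134169-24316666. Some runs hold olfactory receptor genes or near-identical copies, where reads of a neighbour cannot be told apart from the gene's own.

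The wild-type response was then set against that of Fes-/- macrophages, whose libraries it does not share. The difference between the responses passed the test for 3 of 15801 genes (0.019%), Fes, Unc45a and Tsku, all on chromosome 7, and for no member of the 52 lists. Fes, at chr7:80377756-80387946, was at 169, 189 and 179 CPM in wild-type PBS and 152, 163 and 171 CPM in wild-type LPS, the groups overlapped, and its change of -0.15 ± 0.07 was not called (adjusted p = 0.0744), although it was without PBS library 1 (0.0387) or LPS library 3 (0.0487). It was called without a filter on low counts too (-0.23, adjusted p = 0.0402), and under library totals it was -1.06 (adjusted p = 1.61e-09). The difference for Unc45a was lost on leaving out any of 8 libraries (adjusted p = 0.0727 to 0.122). It was also lost with limma on log2(TPM + 1) (0.056) and on log2(TPM + 0.1) (0.0707). In Fes-/- libraries Fes counts remained, at 66.4 to 70.5 CPM in PBS and 32.9 to 35.1 CPM in LPS. For examples of genes that were not called, log2 changes in wild-type and Fes-/- cells were 8.49 and 8.32 for Tnf, 8.95 and 8.78 for Rsad2 and -7.26 and -6.51 for Sesn1. A difference that misses the threshold does not show that the responses were equal.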

How the data were processed

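Poly(A)-enriched RNA of 12 libraries (4 groups of 3) was sequenced. The deposited files hold raw counts per gene and TPM (transcripts per 1000000) made by the authors. The submitters' processing notes name STAR 2.7.8a, Picard 2.9.0, R 4.1.12, DESeq2 1.34.0 and the builds GRCm38 and mm9 without roles, and no counting program. Gene lengths implied by counts and TPM were within 1% of GENCODE M21 (GRCm38) for 98.6% of 9487 well-counted genes, so its coordinates were used. Genes were filtered with filterByExpr, scaled by TMM and tested with edgeR 4.0.16 (robust quasi-likelihood, glmTreat for 2-fold) over all 12 libraries, 1 mean per group, 8 residual degrees of freedom, in R 4.3.3 with Benjamini-Hochberg adjustment; TPM served for levels between genes. Standard errors of log2 changes were taken as the absolute change divided by the square root of the test's F. For genes with few counts in a group they can be smaller than the counting error. The fits were tested on simulated data in which few genes changed, equally often upward and downward. That setting does not cover a response this broad or the choice of scaling. Alternatives were DESeq2 1.42.0, limma 3.58.1 on log2(TPM), other scalings and filters, the replicate number as a block and each library left out. Deviations from the group mean correlated at 0.141, 0.166 and 0.137 between wild-type PBS and LPS libraries of the same number. For wild-type libraries of different numbers they correlated at -0.098 to -0.038. In Fes-/- cells the values were 0.068, 0.089 and 0.189 for the same number and -0.133 to 0.06 otherwise. The numbers were taken to pair the samples in the block fits only, and the main fit is unpaired. This pairing comes from the data.

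The lists, motifs and members were chosen with earlier results of these data known. Genes were named by rule: among called genes that reached 5 CPM and did not overlap, the top 15 in each direction, the 10 largest TPM rises, TPM falls and TPM levels in LPS, in each list up to 3 by change and 3 by level (every member of lists of 12 or fewer), and genes differing from Fes-/- cells. Adora2b, Arg1, Arntl, Bbc3, Casp1, Casp4, Ccl12, Ccl2, Ccl8, Ccl9, Ccnd1, Ccr2, Cd163, Cd28, Cd40, Cd79b, Cd86, Cdh5, Cdk6, Cebpa, Csf1, Csf3r, Cx3cr1, Cxcl1, Cxcl9, Ezh2, Foxo1, Fpr1, Fpr3, Gdf15, Hif1a, Hpgd, Ifi47, Ifngr1, Ighm, Il10, Il15, Il16, Il18, Il27, Il6ra, Il6st, Irak1, Irak4, Irf3, Irf8, Irgm1, Isg15, Kdm6b, Kdr, Klf2, Msr1, Mtor, Mx1, Neat1, Nprl3, P2rx7, Per1, Per3, Pmaip1, Ptgs1, Rictor, Rptor, Sigirr, Slc2a1, Slc40a1, Tap1, Tgfbr1, Ticam2, Timp1, Tlr4, Tnfsf13b, Top2a, Vegfa, Zfp235, Zfp36l1, Zfp36l2 and Zfp94 were named outside this rule, after their values were seen, as were genes named only as markers or as ends of runs. Promoter sequences are RefSeq's for GRCm38.p6. The design text names 3 mice per genotype, and p-values measure the spread between these libraries. A few items are not reported here.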

Additional observations from a re-analysis of the deposited data

Results flagged for a closer look

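The LPS effect differed between wild-type and Fes-/- macrophages for 3 genes, by edgeR's test of that difference over 15801 genes (n = 3 per group). Fes changed by -0.15 ± 0.07 (SE, log2) in wild-type and by -1.02 ± 0.07 in Fes-/- cells, a difference of 0.87 ± 0.10 (adjusted p = 0.00556). Unc45a, a myosin chaperone gene at chr7:80325292-80341005 near Fes, went from 14.5 ± 0.759 CPM (mean ± SD) to 31.1 ± 1.81 CPM in wild-type cells, a log2 change of 1.10 (0.19 and not called under library totals). In Fes-/- cells it was at 13.5, 12.3 and 14.9 CPM in PBS and 15.7, 16 and 14.8 CPM in LPS, a change of 0.19; the difference was 0.91 ± 0.13 (adjusted p = 0.0215). It did not pass without PBS library 1 or LPS library 2 or 3 of the wild type (adjusted p = 0.0744, 0.0962 and 0.122). Nor did it pass without PBS library 1 or 3 (0.0969 and 0.0727) or LPS library 1, 2 or 3 (0.111, 0.0742 and 0.0828) of the Fes-/- cells. With limma on log2(TPM + 1) and log2(TPM + 0.1) it did not pass (0.056 and 0.0707), but on log2(TPM + 1) without a filter it did (0.0288). Tsku, a secreted inhibitor of growth factor signalling at chr7:98350668-98361328, changed by -0.84 in wild-type cells, from 3.17 ± 0.596 to 1.77 ± 0.885 CPM. Its wild-type libraries varied, and these groups are not stated here to lie apart. In Fes-/- cells Tsku went from 2.47, 2.42 and 2.36 CPM to 12.9, 11.7 and 10.6 CPM, a change of 2.28, and the difference was -3.12 ± 0.36 (adjusted p = 0.00556). Fes and Tsku passed with every library left out in turn. All 3 lie on chromosome 7.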

How the results depend on the processing

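The counts moved with scaling and with the tool and unit, which change together in the TPM settings. Genes called higher numbered 5464 with TMM, 2579 with library totals, and 2513, 2538 and 2752 with limma on log2(TPM + 1), log2(TPM + 0.1) and log2(TPM + 1) without a filter; genes called lower numbered 6137, 10828, 10934, 10994 and 11462. By the 2-fold test 2583 became 1654, 1040, 1372 and 991 higher, and 2845 lower became 6413 with library totals and 5598 with log2(TPM + 0.1). Runs of raised genes fell from 127 to 58, 28, 48 and 21, and runs of lowered genes went from 105 to 615, 317, 508 and 215, and to 65 with DESeq2. Genes with a different response in Fes-/- cells numbered 5 with DESeq2 and with log2(TPM + 1), 10 without a filter on TPM and 90 without a filter on counts. Within 100 bases of the start, kappaB matches were found in 1.31% of raised, 0.247% of lowered and 0.568% of all promoters and ISRE matches in 5.03, 1.24 and 2.08%; the shorter window holds fewer matches by construction. The cause of the other changes was not tested.

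Library totals and the 3 TPM settings changed the sign of small rises for 6 named genes; none of these settings called B2m (adjusted p = 0.186 to 0.568) or Pf4 (0.0632 to 0.117) lower. In that order the log2 changes were -0.24, -0.26, -0.26 and -0.26 for Atp5b, -0.13, -0.16, -0.16 and -0.16 for B2m, -0.22, -0.23, -0.25 and -0.23 for Mtor, -0.38, -0.35, -0.41 and -0.35 for Nprl3, -0.20, -0.23, -0.23 and -0.23 for Pf4, and -0.48, -0.48, -0.50 and -0.48 for Rptor.

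Leaving out each of 12 libraries gave 11074 to 11743 called genes (5214 to 5656 higher, 5843 to 6191 lower), 5240 to 5508 by the 2-fold test (2553 to 2684 higher, 2635 to 2903 lower), 2 to 3 genes that differed from Fes-/- cells, 68 to 72 genes switched on, 63 to 71 switched off, 121 to 136 runs of raised and 92 to 102 runs of lowered genes. With the replicate number as a block, 11862 genes were called in 12 libraries and 11441 in the 6 wild-type libraries; apart from Apoe and Mrc1, the paired fit changed no call of a named gene. The comparison with Fes-/- cells could not be fitted on the 6 wild-type libraries alone. With 3 libraries a group, the 95% interval of the change lay within 2-fold either way for 5857 of 15801 genes (37.1%).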

Other observations

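Other gene groups are given by their counts, beside 34.6% higher and 38.8% lower over all tested genes. Of 21 Fc and ITIM receptors 13 were higher and 7 lower (9 and 9 under library totals). The activating Fcgr4 rose from 32.8, 34 and 35.4 CPM to 392, 374 and 389 CPM and the inhibitory Fcgr2b from 40.5, 88 and 71.6 CPM to 723, 925 and 866 CPM. Complement genes had 16 of 19 higher and 2 lower (median 0.59; 6 higher and 9 lower under library totals), and C3, the central component, rose from 68.6, 72.4 and 79.1 CPM to 1074, 892 and 1087 CPM. Of 8 NADPH oxidase genes 7 were higher and none lower, against 1 higher and 4 lower under library totals. By the 2-fold test 1 passed: Cybb, the catalytic subunit, went from 674, 786 and 706 CPM to 3190, 3821 and 3416 CPM. The list of NRF2 (the oxidant-response factor), glutathione and heme genes, near those shares, had 9 of 25 higher and 9 lower (6 and 19 under library totals). The cystine carrier Slc7a11 rose from 0.9, 0.703 and 0.535 CPM to 120, 128 and 118 CPM, while Gclc, which makes glutathione's precursor, changed by -2.28 on the log2 scale. In the heat shock, unfolded protein and ATF4 list 12 of 28 were higher and 8 lower (4 and 19 under library totals). The inducible chaperone Hspa1b changed by 5.48 and the stress kinase Eif2ak3 (PERK) by -3.37.

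Non-coding transcripts were counted with the rest, and over all tested genes 16.3% were higher and 18% lower by the 2-fold test. Of 466 tested lincRNAs, 101 were higher and 143 lower by the 2-fold test; of 480 antisense transcripts, 81 were higher and 134 lower. Processed pseudogenes, 990 tested, had 111 higher and 31 lower. Whether counting used the strand is not stated, so reads of an antisense transcript or a pseudogene cannot be told apart from those of its partner gene. Neat1, the scaffold of paraspeckles, fell from 591, 476 and 445 CPM to 171, 252 and 185 CPM. Ptgs2os, named for its place opposite Ptgs2, had no PBS count and 0.467, 0.984 and 1.06 CPM in LPS, at least 78.6-fold higher against 3 counts over the PBS group.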
